A study of Mus musculus with 4 samples.

Results

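The germline genes described here are 36 named genes that work in germ cells and that cells of the body normally keep silent. They were looked up by gene symbol in the read counts of cultured mouse rib chondrocytes, among the 18298 genes that had reads in any sample, and a gene missing from a sample's list was given 0 reads. Of the 36, 33 had a read in at least 1 sample, and 9 had the 10 reads in at least 2 samples that the test asked for.

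The cultures were primary rib chondrocytes, the cells that make cartilage, taken from E18.5 embryos on a C57BL/6 background and used at P1. Each of the 2 mutant samples was Dermo1-Cre;Senp6f/f and each of the 2 control samples was Senp6f/f, so both groups carried the floxed Senp6 alleles and only the mutants carried Cre. Dermo1-Cre is expressed from the Twist2 locus in mesenchymal progenitors, where it removes floxed exons of Senp6, the gene of a protease that trims SUMO chains from proteins. The libraries held about 21020000 and 26140000 reads on genes in the controls and about 30990000 and 28250000 in the mutants.

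Genes of meiosis and of the piRNA pathway are switched on in germ cells and shut off elsewhere by DNA methylation and by repressor complexes. One of these, a Polycomb complex with E2F6, MGA, L3MBTL2 and PCGF6, is brought to promoters by the DNA-binding subunits E2F6 and MGA. Another joins TRIM28 and the histone methyltransferase SETDB1, and its assembly involves SUMO. In the study, SENP6 was examined as an enzyme acting on TRIM28.

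Some facts of the whole series bear on all values below. Senp6 itself had 1125 and 2326 reads in the control and 1839 and 1126 in the mutant samples, which overlapped, and the counts do not separate its deleted exons. All 11 cartilage markers looked up had reads, Col2a1 with 65901 and 88724 reads in the controls and 53227 and 64770 in the mutants, and all 11 were lower in both mutants than in both controls. Xist, which is expressed from the inactive X of female cells, had 11354 reads in mutant replicate 2 and 2 to 5 reads in the other 3 samples, and Ddx3y, on the Y, had 3 reads in mutant replicate 2 and 818 to 1601 in the others, so the mutant pair was mixed in sex. In these bulk samples, more cells that express a gene and more RNA per cell cannot be told apart.

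Among the germline genes, Tdrd9 and Stag3 stood far above control in both mutants. Their promoters are shown with that of Dmc1, the other member with a listed promoter whose mutant values lay above both controls among the 9 tested. The sequences are the 250 bases before the start of each gene, from RefSeq on GRCm38.p6, 5′ to 3′ on the gene's own strand, with every CACGTG and every GCGGGA (or TCCCGC, its reverse complement) in capitals. CACGTG is the E-box that MGA and its partner MAX can bind, and GCGGGA holds the core of the E2F site. The Stag3 window is chr5:138280259-138280508 on the plus strand, that of Tdrd9 is chr12:111971309-111971558 on the plus strand, and that of Dmc1 is chr15:79605110-79605359 on the minus strand.
Stag3: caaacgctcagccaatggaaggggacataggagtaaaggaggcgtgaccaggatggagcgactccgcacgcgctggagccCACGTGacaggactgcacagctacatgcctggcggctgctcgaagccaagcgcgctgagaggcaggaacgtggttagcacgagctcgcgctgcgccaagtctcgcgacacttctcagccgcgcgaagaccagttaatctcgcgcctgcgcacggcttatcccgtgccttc
Tdrd9: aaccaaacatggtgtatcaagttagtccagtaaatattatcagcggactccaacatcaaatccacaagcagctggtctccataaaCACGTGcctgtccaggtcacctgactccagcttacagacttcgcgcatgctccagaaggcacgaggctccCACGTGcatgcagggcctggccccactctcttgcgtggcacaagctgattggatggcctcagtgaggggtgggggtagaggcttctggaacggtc
Dmc1: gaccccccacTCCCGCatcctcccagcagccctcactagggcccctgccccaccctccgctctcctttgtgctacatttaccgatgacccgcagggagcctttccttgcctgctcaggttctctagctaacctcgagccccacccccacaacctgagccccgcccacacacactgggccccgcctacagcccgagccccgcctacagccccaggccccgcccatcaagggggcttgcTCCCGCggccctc

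The Stag3 window held 1 CACGTG, starting 170 bases before the gene's start, and 26 CG dinucleotides. That of Tdrd9 held 2 CACGTG, starting 165 and 95 bases before the start, and 8 CG. The Dmc1 window held no CACGTG, but 2 TCCCGC, starting 240 and 13 bases before the start, and 12 CG. The listed promoters numbered 32851, with a median of 6 CG in the same length. The submitters' processing notes name mm9 as the genome of the reads, so these windows show the genes' sequence and not a place where reads were counted.

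A promoter was listed for 31 of the 36 germline genes, with a median of 15 CG. CACGTG was present in 15 of the 31, or 48.4%, against 6.86% of the 27025 genes with a listed promoter and 9.76% of the 11153 of them that were tested. GCGGGA was present in 11, or 35.5%, against 18.8% of genes with a promoter and 33.6% of those tested. These shares were not tested. Of the 15 genes with a CACGTG, 10 had too few reads to be tested, and 2 of the 5 that were tested were higher in both mutants. Of the 16 without it, 2 were tested and 1 was higher in both mutants, and over all tested genes 25.4% were. Sycp1, Hormad1, Mov10l1, Stk31 and Taf7l, for example, held the letters and had at most 2 reads in any sample.

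The comparison of mutant with control asks which germline genes changed with the loss of Senp6. Tdrd9, an RNA helicase with a Tudor domain that acts with piRNAs to silence retrotransposons, had 2 and 4 reads in the control samples and 50 and 60 in the mutants. As RPKM, reads scaled to gene length and library size, this was 0.0198 and 0.0318 against 0.336 and 0.442. The groups were far apart. The fold was 13.9 (log2 fold change 3.79, standard error 0.51), and the ratio of summed reads, 14.2, had a 95% exact interval of 6.34 to 39.7, which covers counting error only. Tdrd9 had under 10 reads in both controls, so it entered the test through its mutant samples alone. Only 25 of the 14123 genes tested had a larger positive log2 fold change.

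Stag3, the STAG subunit of cohesin that germ cells use in meiosis, had 12 and 17 reads in the controls and 105 and 142 in the mutants. Its RPKM was 0.134 and 0.153 against 0.798 and 1.18. The lowest mutant value was thus several times the highest control value. The fold was 6.61 (log2 fold change 2.73, standard error 0.37).

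Tex15, required for meiotic break repair and for silencing of transposons in male germ cells, had 30 and 44 reads in the controls and 119 and 100 in the mutants. Its RPKM was 0.170 and 0.2002 against 0.457 and 0.421, with no overlap, and the fold was 2.30 (log2 fold change 1.201, standard error 0.29). Dmc1, the recombinase that pairs meiotic DNA strands, had 12 and 27 reads in the controls and 45 and 41 in the mutants. Its RPKM was 0.261 and 0.471 against 0.662 and 0.662. The mutant values of Dmc1 lay above both controls, while the controls differed from each other (0.366 ± 0.149 RPKM, SD, n = 2), and the log2 fold change was 0.80 (standard error 0.42).

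All 14123 genes with enough reads went into 1 quasi-likelihood fit in edgeR, with Benjamini-Hochberg adjustment. At an adjusted p under 0.05 it called 0 genes higher and 0 lower (0% each), so 0 germline genes, and the smallest adjusted p of any gene was 0.051. Stag3 and Tdrd9 both had an edgeR adjusted p of 0.0788 and ranked 34 and 35 by p, among the 1.52% of genes that were higher with an adjusted p under 0.1. Tex15 had an edgeR adjusted p of 0.133 and Dmc1 one of 0.430. At an unadjusted p under 0.05, Stag3, Tdrd9 and Tex15 were higher, 3 of 9 against 9.29% of all genes tested, and 0 of 9 were lower against 6.28%. Tdrd9 was among the 9 only because it was high in the mutants, and without it 2 of 8 were higher.

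DESeq2 in place of edgeR called Stag3 (adjusted p = 7.17e-05) and Tdrd9 (adjusted p = 0.00168), 2 of 9, or 1 of 8 without Tdrd9, against 3.07% of all genes that it called higher. Both were also past 0.05 in edgeR without the filter on low counts, a setting that called 225 of 18298 genes higher and 61 lower. Leaving out any 1 of the 4 samples puts a single sample in 1 group, so only the size is given. There the log2 fold change was 2.44 to 2.97 for Stag3 and 3.55 to 4.13 for Tdrd9. Tex15 was not past 0.05 with DESeq2 or without the filter, and its log2 fold change was 1.11 to 1.28 with 1 sample left out. For 1 gene, exact permutation of 2 against 2 samples reaches a p of 0.333 at best.

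The other 5 tested germline genes had reads in every sample and did not pass any of these thresholds. Rec8, the kleisin subunit of meiotic cohesin and a partner of Stag3, had an RPKM of 1.30 and 0.726 in the controls and 1.41 and 1.26 in the mutants, so the groups overlapped (log2 fold change 0.36, standard error 0.38, edgeR adjusted p = 0.705). Syce2, of the central element of the synaptonemal complex, had the highest RPKM of the germline genes, 3.79 and 3.86 in the controls and 3.04 and 3.63 in the mutants. Both mutant values were slightly below both controls (log2 fold change -0.24, standard error 0.24, edgeR adjusted p = 0.693).

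Brdt, a bromodomain protein of spermatogenic chromatin, had an RPKM of 0.626 and 0.487 in the controls and 0.486 and 0.594 in the mutants (log2 fold change -0.09, standard error 0.31, edgeR adjusted p = 0.923). Ddx4, the germ cell helicase Vasa, had 8 and 24 reads in the controls and 16 and 15 in the mutants (log2 fold change -0.37, standard error 0.54, edgeR adjusted p = 0.80). Piwil2, a PIWI protein that carries piRNAs, had 18 and 7 reads in the controls and 12 and 21 in the mutants (log2 fold change -0.01, standard error 0.69, edgeR adjusted p = 0.994). Each of these 3 had overlapping groups and differed more within a genotype than between them.

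Counting by overlap, 4 of the 9 tested genes (Stag3, Tdrd9, Tex15 and Dmc1) had both mutants above both controls in CPM, reads scaled to library size, where 25.4% of all tested genes did, and without Tdrd9 it was 3 of 8. Syce2 alone was below in both, where 22.8% of all were. Without WT replicate 1, 7 of the 9 had both mutants above the control that was left, and so did 37.7% of all tested genes. The median log2 fold change was 0.36 over the 9 genes and 0.01 over all 14123, and it was 0.18 without Tdrd9. Without WT replicate 1 the median was 0.86, so its size depended on that control sample.

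**Figure D1:**
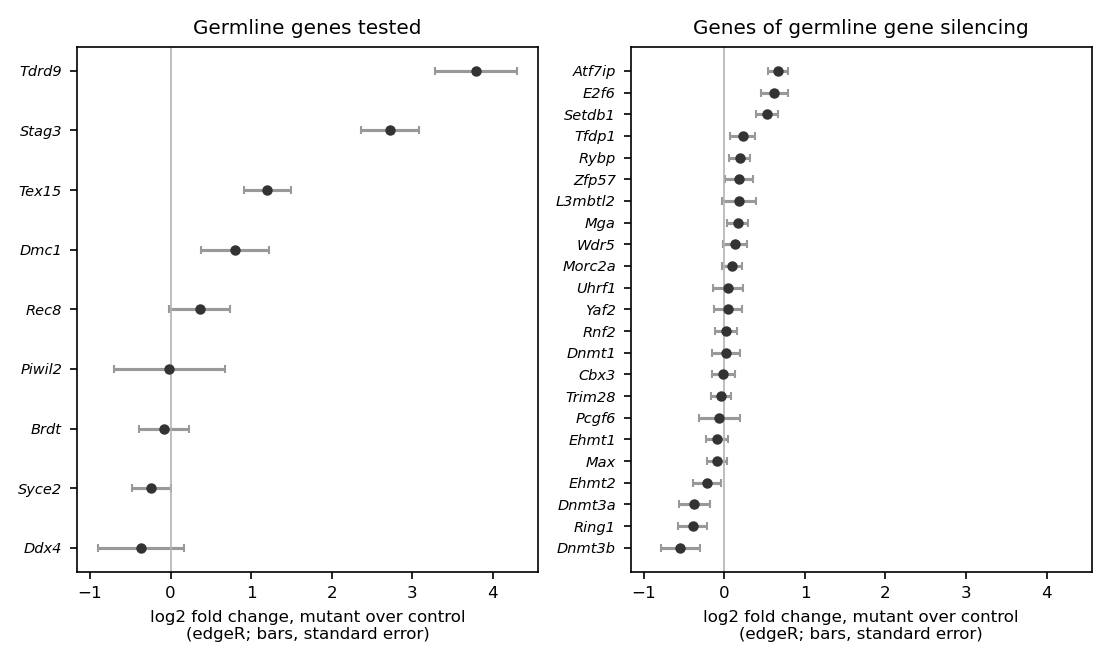
The log2 fold change of mutant over control (x axis, edgeR, bars showing the standard error) is plotted for the 9 tested germline genes (left) and for 23 genes of germline gene silencing (right). Tdrd9 at 3.79 and Stag3 at 2.73 stand apart from the other germline genes, and the silencing genes lie between -0.55 and 0.67.

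The remaining 27 germline genes had no or few reads in both genotypes. No read fell on Asz1 and Hormad2, which act in piRNA production and in meiotic chromosome synapsis, or on Zfp42, a pluripotency gene also called Rex1. Reads were found in both genotypes for 15 genes, in the mutants alone for 7 and in the controls alone for 2, Hormad1 and Rpl10l, with 1 read each. Rpl10l is a close copy of the ribosomal gene Rpl10, so its read is uncertain in origin. The 7 seen in the mutants alone were Sycp1, Tex19.1, Tex101, Taf7l, Dppa3, Stk31 and Mov10l1, with 1 to 3 reads in a sample. Tex19.1, which acts in defence against retrotransposons, was the 1 gene with reads in both mutants (2 and 3) and in neither control, a pattern shown by 1.5% of all listed genes. The opposite pattern was shown by 0 germline genes and by 0.459% of all. At 3 reads or fewer these genes give no fold.

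Of the untested genes, 3 had at least 10 reads in 1 sample. Tex14, a protein of the bridges between germ cells, had 2 and 5 reads in the controls and 7 and 19 in the mutants. Tdrd1, a Tudor scaffold that binds PIWI proteins, had 4 and 5 reads in the controls and 8 and 16 in the mutants. Both had higher CPM in both mutants, with mutant replicate 2 the highest. Smc1b, the meiotic form of a cohesin ring subunit, had 9 and 2 reads in the controls and 3 and 11 in the mutants, which overlapped.

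Of the 3 cohesin subunits of meiosis, Stag3 alone was higher in both mutants, Rec8 overlapped between the genotypes, and Smc1b was near the detection limit. Within the synaptonemal complex, Syce2 held 98 to 126 reads in each sample, while Sycp1, which forms the transverse filaments, and Sycp2 and Sycp3, of the lateral elements, had at most 5. Syce1, of the central element like Syce2, had at most 1. Among piRNA genes, Tdrd9 was higher in both mutants, and so was Tdrd1, which had at most 16 reads and was not tested. Ddx4 and Piwil2, which were tested, overlapped between the genotypes. Mael had 2 or 3 reads in every sample, Piwil4 had 4 to 7 and Piwil1 at most 1. Dazl, an RNA-binding regulator of germ cell translation, had at most 3 reads, Nanos3 at most 4, Sohlh2 at most 6 and Spo11, which makes the meiotic breaks, at most 3. Slc25a31, the germ cell form of the ADP/ATP carrier, had 7 reads in mutant replicate 2 and at most 2 elsewhere.

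Tex11, an X-linked meiosis gene, had 8 reads in mutant replicate 2 and at most 2 in the other samples, and X-linked Taf7l had 1 read, in that same sample. This was the sample with Xist reads, and the part of embryo sex in these counts was not tested.

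**Figure D2:**
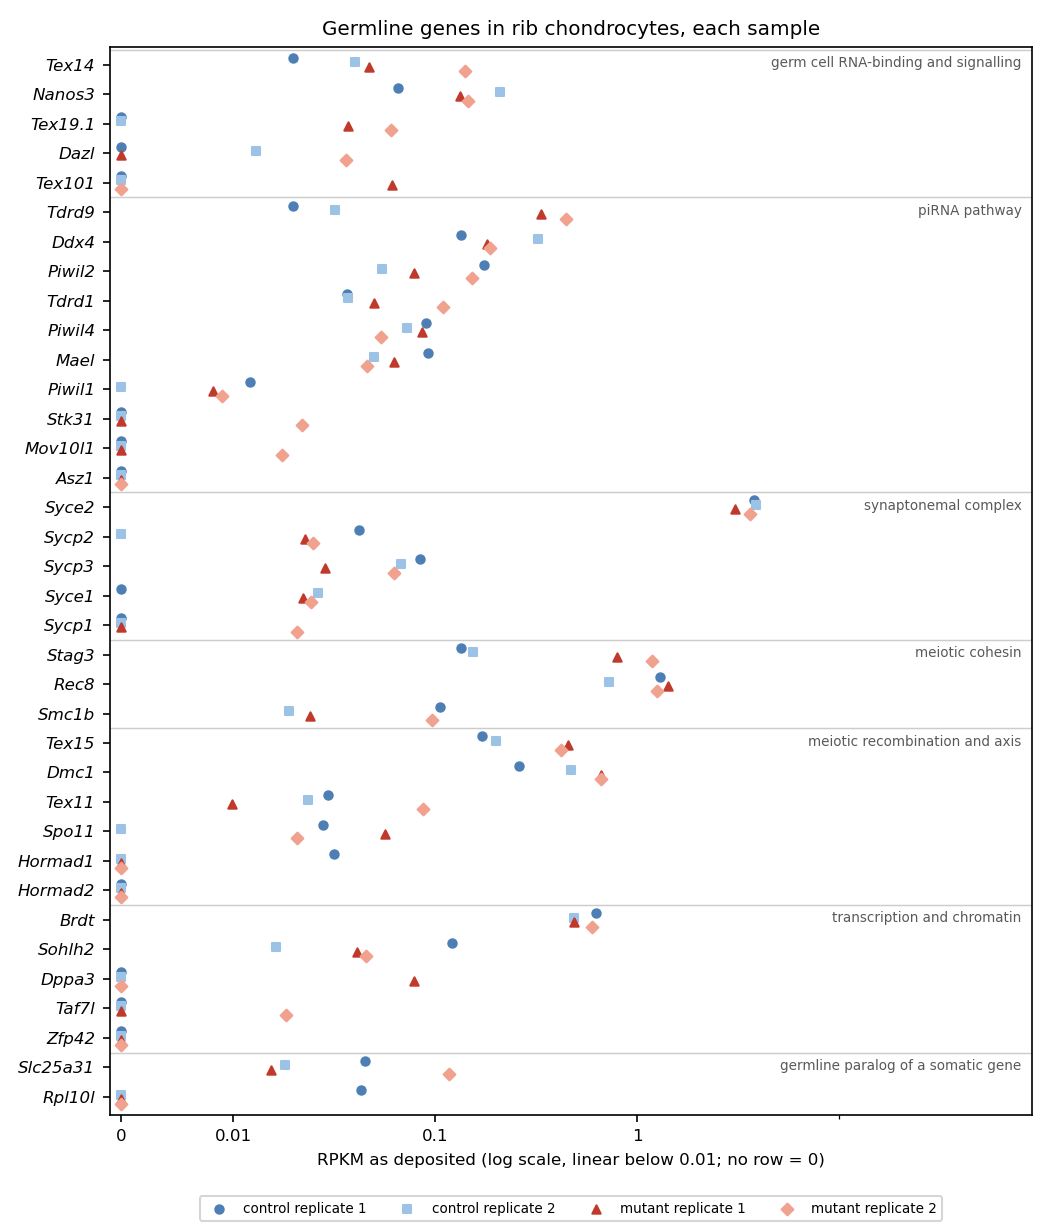
RPKM (x axis, log scale that is linear below 0.01) of the 36 germline genes in each of the 4 samples, grouped by role on the y axis. Tdrd9, Stag3, Tex15 and Dmc1 show both red mutant symbols to the right of both blue control symbols, and many genes lie at 0 in 1 or more samples.

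Detection was compared next, since the mutants were sequenced more deeply. At least 1 read was found for 24 and 21 germline genes in the controls and for 26 and 29 in the mutants, a mean difference of 5.0. Scaled to the lowest depth of the 4 samples, the expected numbers were 24 and 20.1 in the controls and 23.9 and 27.6 in the mutants, which overlapped, and the mean difference was 3.71. Over all genes the number with a read was 16617 and 16630 in the controls and 17001 and 17218 in the mutants, and at the lowest depth 16617 and 16435 against 16659 and 16957, which did not overlap. At 10 reads or more, 7 germline genes were found in each control and 9 and 12 in the mutants, beside 13598 and 13646 of all genes in the controls and 14092 and 14252 in the mutants. The limit of 3 reads corresponds to a CPM of 0.0968 to 0.143 in these libraries.

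Summed over all germline genes, the CPM was 16.9 and 14.3 in the controls and 21.8 and 25.9 in the mutants. Without Stag3, Tdrd9, Tex15 and Dmc1 it was 14.1 and 10.9 against 11.5 and 14.1, which overlapped. These 4 genes were left out for their values, so the second sum is a description.

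The coverage that the authors deposited, as the percent of each gene's length with reads on it, shows how the reads were spread. Stag3 was covered over 27.3% and 24.2% of its length in the controls and 75.7% and 86.5% in the mutants. For Tdrd9 the coverage was 3.06% and 6.03% against 42.2% and 52.0%. The added reads of both genes thus lay along much of the gene and not at a single place. In mutant replicates 1 and 2, genes within 20% of the reads and length of Stag3 had a median coverage of 74.5% and 79.5%, and those like Tdrd9 had 50.8% and 58.8%. Tdrd9 fell just below the lower quartile of 44.8% in mutant replicate 1.

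Brdt was the exception. Its 60 to 79 reads covered 27.3% and 31.4% of the gene in the controls and 37.2% and 29.1% in the mutants. Genes of like reads and length had medians of 62.3% and 58.6% in the controls and 62.0% and 68.3% in the mutants, and Brdt was under their lower quartile in all 4 samples. Its reads thus lay on a smaller part of the gene than those of like genes in both genotypes, and the files give no counts per exon. Rec8, with 56 and 39 reads in the controls and 90 and 73 in the mutants, was covered over 85.6% to 91.4% of its length.

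**Figure D3:**
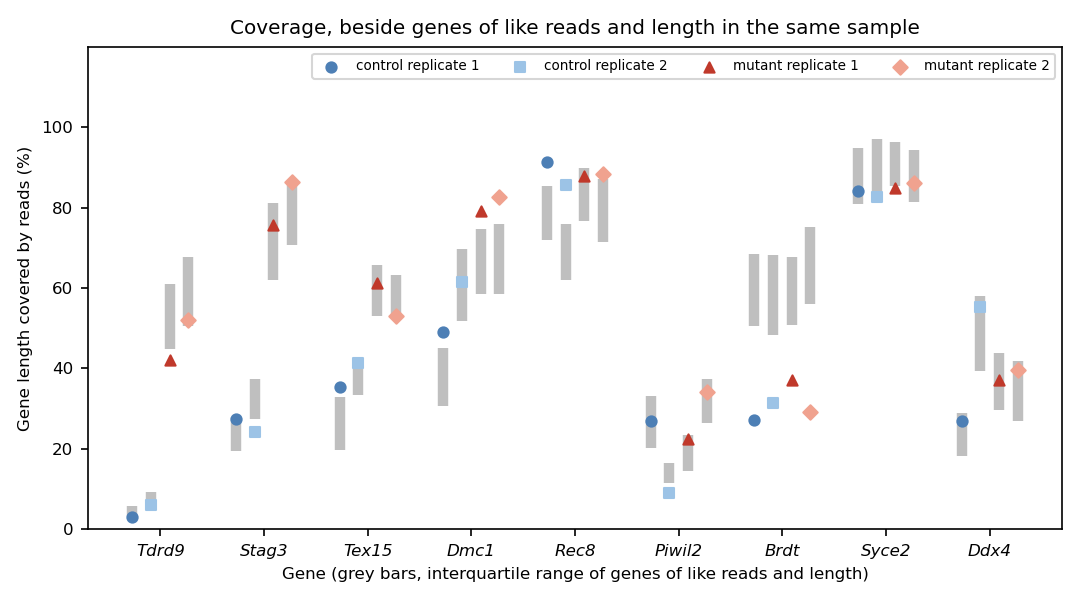
Covered percent of each gene's length (y axis) for the 9 tested germline genes in each sample, with grey bars for the interquartile range of genes within 20% of the same reads and length in that sample. Stag3 and Tdrd9 move from under 30% in the controls to over 40% in the mutants, and Brdt lies under its grey bar in all 4 samples.

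Reads on these genes could come from an overlapping gene, because the labels do not say that counting used strand. In the GENCODE annotation of GRCm38, no exon of the 9 tested genes overlapped an exon of another gene, although the spans of Syce2 and Gcdh meet and Ipo4 ends 5 bases from Rec8. The nearest tested gene to Stag3 is Gpc2, on the opposite strand, which had 177 and 185 reads in the controls and 403 and 377 in the mutants (log2 fold change 0.72, standard error 0.20, edgeR adjusted p = 0.167). The next, Gal3st4, also on the opposite strand, differed by 0.75 on the log2 scale (standard error 0.23, edgeR adjusted p = 0.1998). The nearest to Tdrd9, Aspg and Ppp1r13b, had log2 fold changes of 0.24 (standard error 0.36) and 0.08 (standard error 0.14). For Tex15, Ppp2cb and Ubxn8 had 0.13 (standard error 0.16) and -0.34 (standard error 0.17). Both neighbours of Stag3 were thus higher in both mutants, by less than Stag3 was.

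A further list of 44 germ cell genes outside the 36 was looked up. Of these 28 had a read and 8 were tested, of which 0 had an adjusted p under 0.05 in edgeR, 0 an unadjusted p under 0.05 and 0 a call by DESeq2. Both mutants were above both controls for 3 of the 8 and below for 0, against 25.4% and 22.8% of all tested genes. The median log2 fold change of the 8 was 0.01. Among the 20 genes that had a read but missed the filter, Gpat2, of the piRNA pathway, had 1 and 0 reads in the controls and 10 and 3 in the mutants. Gtsf1, another piRNA gene, had 0 and 1 against 3 and 2. In the other direction, X-linked Xlr had 10 and 3 reads in the controls and 3 and 1 in the mutants. A list of 21 genes of late spermatids had 6 tested, and 0 of them had an unadjusted edgeR p under 0.05 or a DESeq2 call. In this list 2 of the 6 were above and 0 below in both mutants, beside the same shares of all tested genes. Its protamine and transition protein genes Prm2, Prm3, Tnp1 and Tnp2 had no read, and Prm1 had 1 to 5.

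The genes that silence germline genes were expressed in both genotypes. All 23 were tested, 0 passed an adjusted p of 0.05 in edgeR, and 3 had an unadjusted p under 0.05, each higher in the mutant. Over all tested genes, 9.29% were higher and 6.28% lower at that unadjusted p. Of the 23, 7 were above and 3 below in both mutants, against 25.4% and 22.8% of all tested genes. The 3 with an unadjusted p under 0.05 were Atf7ip, the partner of SETDB1, with 2773 and 3305 reads in the controls and 6350 and 6167 in the mutants (log2 fold change 0.67, standard error 0.12, edgeR adjusted p = 0.0915), E2f6 (log2 fold change 0.62, standard error 0.16, edgeR adjusted p = 0.154) and Setdb1 (log2 fold change 0.53, standard error 0.14, edgeR adjusted p = 0.151). DESeq2 called Atf7ip alone of the 23 (adjusted p = 0.00179), and it called 3.07% of all tested genes higher. Trim28 differed by -0.04 on the log2 scale (standard error 0.12) and Dnmt1, the maintenance DNA methyltransferase, by 0.02 (standard error 0.17). These values are RNA. At the protein level, the study reported a lower total of TRIM28 and more of its sumoylated form in mutant rib cartilage. For the Polycomb subunits the log2 fold change was 0.16 for Mga (standard error 0.13), 0.18 for L3mbtl2 (standard error 0.21) and -0.06 for Pcgf6 (standard error 0.25). The 3 below in both mutants were Dnmt3b, a de novo DNA methyltransferase (log2 fold change -0.55, standard error 0.25, edgeR adjusted p = 0.360), Ring1, a ubiquitin ligase of Polycomb complexes (log2 fold change -0.40, standard error 0.18, edgeR adjusted p = 0.353), and Max, the partner of MGA (log2 fold change -0.09, standard error 0.12, edgeR adjusted p = 0.783).

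Some markers of other cells were higher in the mutants, as Stag3 and Tdrd9 were, and others were lower. Of 11 skeletal muscle genes, 8 were above in both mutants and 0 below, 6 had an unadjusted edgeR p under 0.05, and their summed CPM was 223 and 67.2 in the controls and 379 and 396 in the mutants. These 6 were Acta1, Actc1, Des, Myod1, Myog and Tnni1, with log2 fold changes from 1.25 for Acta1 to 2.51 for Myod1, a regulator of muscle identity. No muscle marker was at 0. The 2 controls thus differed severalfold in muscle genes. Stag3 was 0.591 and 0.647 CPM in these controls. Tdrd9 was 0.0985 and 0.152 CPM in them. These values rest on 12 and 17 reads for Stag3 and 2 and 4 for Tdrd9. Their relation to muscle content was not tested. Sox10, a marker of Schwann cells, had 21 and 17 reads in the controls and 93 and 146 in the mutants (log2 fold change 2.27, standard error 0.42, edgeR adjusted p = 0.0916). Sox2, which is also expressed in neural and Schwann cell precursors, had 9 and 8 reads against 43 and 36 (log2 fold change 1.82, standard error 0.44, edgeR adjusted p = 0.133). Epcam, an epithelial gene, had 7 and 7 reads against 24 and 42. The 3 genes listed for keratinocytes, Epcam among them, summed to a CPM of 0.591 and 0.343 against 0.870 and 1.86. In the mutants, 0.773 and 1.45 of this was Epcam. Krt14 overlapped, with 4 and 1 reads against 3 and 12, and Krt5 was at 0 in both mutants. The part of these cells in the germline values was not tested.

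Of the 7 genes listed for germ cells and pluripotency, 4 were at or under 3 reads in every sample. Pou5f1 had 1 read in 1 control, Tdgf1 had at most 2 reads, and Prdm14 and Nanos2 had none. Nanog, with 9 and 9 reads in the controls and 15 and 20 in the mutants, and Dnd1, with 24 to 38 reads in each sample, were above that limit (edgeR adjusted p of 0.644 and 0.448). With Sox2, given above, the 7 genes summed to a CPM of 2.41 and 2.13 in the controls and 2.67 and 3.03 in the mutants. Of this, Sox2 made up 0.44 and 0.30 in the controls and 1.4 and 1.2 in the mutants. Dnd1 was below in both mutants, with a CPM of 1.48 and 1.45 against 0.773 and 1.03. Nanog was above in both, with 0.44 and 0.34 against 0.48 and 0.69. Over all tested genes, 22.8% were below and 25.4% above in both mutants. Cartilage markers summed to 5175 and 5037 in the controls and 2751 and 3245 in the mutants, with none at 0, and 10 of the 11, all but Acan, had an unadjusted edgeR p under 0.05. Macrophage markers summed to 21.8 and 19.11 against 9.02 and 13.4, all 4 tested being lower in both mutants. Osteoblast markers summed to 891 and 870 against 770 and 977 and endothelial ones to 5.67 and 3.50 against 3.90 and 3.99, which overlapped, and erythroid markers summed to at most 0.310 in any sample. Most of the osteoblast sum was Spp1, with a CPM of 487 and 706 in the controls and 725 and 886 in the mutants, and the other 3 tested osteoblast genes were below in both mutants. Of these lists Lyz2, Ibsp, Alpl, Sp7 and Tek were lower and Kdr higher at an unadjusted edgeR p under 0.05.

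**Figure D4:**
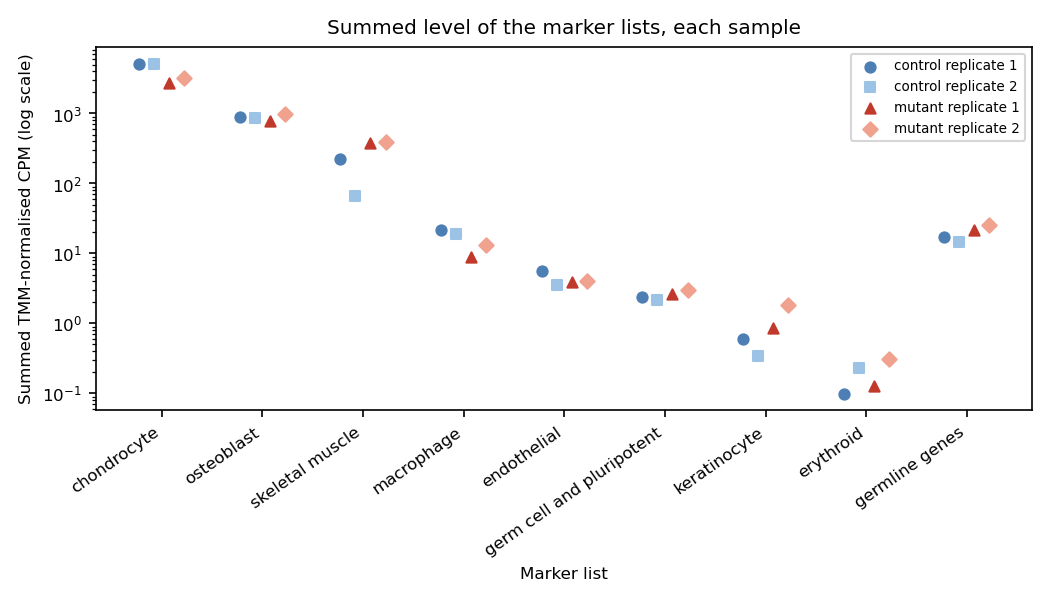
Summed TMM-normalised CPM (y axis, log scale) of 8 marker lists and of the 36 germline genes (right) in the 4 samples. Muscle genes are higher and cartilage and macrophage genes lower in both mutants, and germ cell and pluripotency genes sum to at most 3.03.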

How the data were processed

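RNA from 2 mutant and 2 control samples was enriched for poly(A) RNA, fragmented, primed with random hexamers and sequenced by a service. The authors deposited read counts per gene without normalization, from about 21020000 to 30990000 per sample. The deposited RPKM is that count scaled to each gene's listed length and the sample's total, and coverage is deposited as a percent of the gene length. The submitters' processing notes name mm9 and SAMtools. The aligner, counter and annotation are not given in the sources used here.

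The counts were tested with edgeR 4.0.16 (R 4.3.3), TMM normalization (factors from 0.966 to 1.03) and the robust quasi-likelihood test, on the 14123 genes reaching 10 counts in 2 or more samples. Each standard error is the log2 fold change over the root of its F value. CPM uses the TMM factors, and coverage was not tested. Alternatives were DESeq2 1.42.0, RLE size factors, no filter, the replicate block and leaving out each sample. Scripts were tested on simulated data. p-values measure the spread between these samples, as the labels do not tie each to its own animal.

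The 36 genes and all gene lists were chosen with earlier results of these data known. Every member is named, with listed genes at an unadjusted edgeR p under 0.05 and 7 fixed silencing genes. Neighbouring genes and listed genes outside this rule were chosen after their values were seen. Some marker genes, and the sum of their list, are not reported here.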

Additional observations from a re-analysis of the deposited data

How the results depend on the processing

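With edgeR no gene passed an adjusted p of 0.05, and this count depended on the processing, while RLE size factors left it at 0. DESeq2 gave 434 higher and 263 lower genes, no filter on low counts gave 225 and 61, and leaving out 1 sample gave 96 to 1331 higher and 47 to 1492 lower genes. With 1 sample left in a group, that sample was assumed to vary like the others. The replicate block gave 84 and 33, although the replicate numbers share only a label, as their differences had a correlation of -0.0422 between the genotypes across genes. Germline genes past the threshold were 2 (Stag3 and Tdrd9) with DESeq2, with no filter and with the replicate block, and 2 to 3 with 1 sample left out, the third being Tex15. The log2 fold change of Stag3 stayed between 2.44 and 2.97 and that of Tdrd9 between 3.55 and 4.13 over 8 alternatives. The median over the tested germline genes was 0.18 without Tdrd9 (chosen after seeing the data) and 0.36 to 0.86 with 1 sample left out. With no filter it was 0.77, but over another set of genes. These were the 33 with a read, 24 of them with too few reads to be tested otherwise. Germline genes with no overlap, higher in the mutant, numbered 4 to 7 with 1 sample left out, a comparison with 1 sample in a group. The 7 came without WT replicate 1, where 37.7% of all tested genes showed this pattern. The share of all genes was not taken for the other left-out samples. The number detected differed by 3.5 at 10 reads, by 3.71 at the lowest depth and by 3.5 to 6.5 with 1 sample left out. Signs turned without WT replicate 2 for Ddx4 (0.36, range -0.824 to 0.36 with 1 sample left out) and Rec8 (-0.054, range to 0.86), and for Brdt without WT replicate 1 (0.13) and mutant replicate 1 (0.032), with a range of -0.31 to 0.13. They turned for Piwil2 with the replicate block (0.051), without WT replicate 1 (1.03) and without mutant replicate 1 (0.36), with a range of -0.71 to 1.03. The causes of these changes were not tested. Folds of germline genes that missed the filter of 10 reads in 2 samples were not measurable. The fold of Tdrd9 is uncertain in size, as its controls had 2 and 4 reads. Counts without Tdrd9, and the share of all genes without WT replicate 1, were also chosen after seeing the data.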
